A study of Mus musculus with 4 samples.

Results

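The enzymes that inhibitory receptors recruit, and the kinases, adaptor and phospholipase that these enzymes oppose, were followed as 9 genes in neutrophils of the injured mouse heart. They are the phosphatase genes *Ptpn6*, *Ptpn11* and *Inpp5d*, the kinase genes *Syk*, *Lyn*, *Fgr* and *Btk*, the adaptor gene *Tyrobp* and the phospholipase gene *Plcg2*. They were chosen by function, as genes acting below or against inhibitory receptors such as CD300a, and were found by symbol. All 9 are among the 25655 genes measured, and all 9 are among the 6523 genes with a mean above 10 TPM over the libraries (TPM, a transcript's share of its library corrected for gene length), for which ratios are given.

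RNA-Seq was performed on neutrophils from the heart 3 days after myocardial ischemia and reperfusion (MI/R), to compare gene expression with and without the inhibitory receptor CD300a in cells with high or low surface SiglecF. Male mice of 8 to 12 weeks had a coronary artery tied for 60 minutes and then reopened. The WT SiglecF lo and WT SiglecF hi groups came from C57BL/6J mice that carry *Cd300a*. The *Cd300a-/-* SiglecF lo and *Cd300a-/-* SiglecF hi groups came from mice on a C57BL/6 background that lack *Cd300a* in every cell, so a difference between genotypes need not begin in neutrophils. Cells positive for CD45.2, CD11b and Ly6G were sorted as SiglecF-positive or SiglecF-negative, named SiglecF hi and SiglecF lo here. Each of the 4 groups is 1 library from the pooled hearts of 8 mice. No difference between groups therefore has a replicate check, and no P value is given. Library totals, over all genes, were 9631901 in WT and 10988619 in *Cd300a-/-* SiglecF lo neutrophils, and 19278243 in WT and 17632989 in *Cd300a-/-* SiglecF hi neutrophils.

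*Cd300a*, the deleted gene, had 3024 counts in WT SiglecF lo and 6640 in WT SiglecF hi neutrophils, against 28 in *Cd300a-/-* SiglecF lo and 27 in *Cd300a-/-* SiglecF hi neutrophils. The genotype labels and this gene go together in all 4 libraries. *Siglecf*, which encodes the sorted surface protein, was at 11.3 TPM in WT and 15.3 in *Cd300a-/-* SiglecF lo neutrophils, and 354 in WT and 405 in *Cd300a-/-* SiglecF hi neutrophils, so the subset labels are also matched. *Ly6g*, the transcript of the neutrophil gate, was at 330 TPM in WT and 889 in *Cd300a-/-* SiglecF lo neutrophils, and 11.1 in WT and 41.9 in *Cd300a-/-* SiglecF hi neutrophils. *Ly6g* was thus low in the SiglecF hi libraries although their cells were sorted on its protein, and it was higher in *Cd300a-/-* than in WT libraries of both subsets. *Itgam*, encoding CD11b, was at 367, 550, 337 and 388 TPM in the same order, and *Ptprc*, encoding CD45, at 608, 683, 646 and 710 TPM.

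CD300a carries immunoreceptor tyrosine-based inhibitory motifs (ITIMs) in its cytoplasmic tail. When kinases of the Src family phosphorylate such a motif, it recruits phosphatases with SH2 domains, which remove phosphate from signalling proteins or from membrane lipids. Activating receptors on myeloid cells signal instead through adaptors with an activation motif (ITAM), which recruit SYK and, below it, BTK and phospholipase C gamma, and several of these enzymes take part in neutrophil adhesion, migration and degranulation.

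The levels of the 9 genes spanned a wide range, and their order was nearly the same in every library. *Tyrobp* was highest by far, ranking 17 to 19 among all genes of each library by TPM. *Ptpn6* followed, then *Lyn* and *Fgr*, then *Syk*, *Inpp5d*, *Plcg2* and *Btk*, with *Ptpn11* lowest. Only *Lyn* and *Fgr* exchanged places. The *Lyn* to *Fgr* ratio of TPM was 1.13 in WT SiglecF lo (95% counting interval 1.09 to 1.18), 1.14 in *Cd300a-/-* SiglecF lo, 1.06 in *Cd300a-/-* SiglecF hi and 0.978 in WT SiglecF hi neutrophils, where the interval of 0.948 to 1.01 includes equality. All intervals given cover counting error only, from the Poisson error of the counts. Reads that carry no molecular identifier may be copies of 1 molecule, so the intervals may be too narrow even for that error. Counts behind the values run from 502, for *Ptpn11* in WT SiglecF lo neutrophils, to 28847, for *Tyrobp* in WT SiglecF hi neutrophils.

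**Figure D1:**
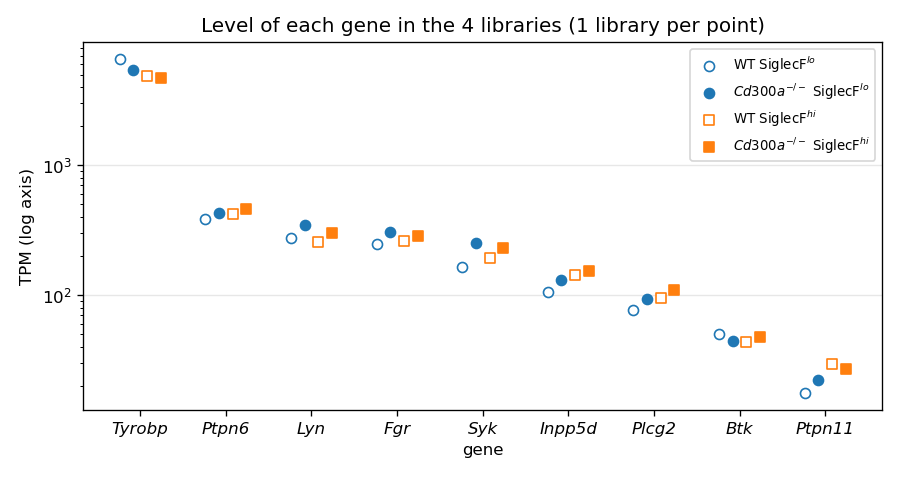
Level in TPM, on a log axis, of each of the 9 genes in each of the 4 libraries. Circles are SiglecF lo and squares SiglecF hi libraries, open for WT and filled for *Cd300a-/-*. *Tyrobp* lies between 4742 and 6600 TPM and *Ptpn11* between 17.4 and 29.1 TPM.

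Among the phosphatases, *Ptpn6* encodes SHP-1, the main SH2-domain tyrosine phosphatase of blood cells. Its level was 384 TPM in WT and 431 in *Cd300a-/-* SiglecF lo neutrophils, and 422 in WT and 464 in *Cd300a-/-* SiglecF hi neutrophils. The 4 values lie close together, with WT SiglecF lo lowest, and the highest is 1.21 times the lowest. *Ptpn11* encodes the widely expressed relative SHP-2, which in many pathways promotes RAS signalling, and was at 17.4 TPM in WT and 22.3 in *Cd300a-/-* SiglecF lo neutrophils, and 29.1 in WT and 27.0 in *Cd300a-/-* SiglecF hi neutrophils. As deposited, both SiglecF hi libraries were above both SiglecF lo libraries for *Ptpn11*, and it spread most of the 9, with 1.67 times between its extremes. On that scale 80.1% of all genes in WT and 80.9% in *Cd300a-/-* mice were higher in SiglecF hi neutrophils. After centring on all genes (below), the *Ptpn11* ratio of SiglecF hi to SiglecF lo neutrophils was 0.18 in WT and −0.34 in *Cd300a-/-* mice. The *Ptpn6* to *Ptpn11* ratio was 22.0 in WT and 19.4 in *Cd300a-/-* SiglecF lo neutrophils, and 14.5 in WT and 17.2 in *Cd300a-/-* SiglecF hi neutrophils. The fall with loss of CD300a in SiglecF lo neutrophils depends on gene length, as described below. *Inpp5d* encodes SHIP1, which dephosphorylates the lipid product of PI3-kinase, and was at 105 TPM in WT and 131 in *Cd300a-/-* SiglecF lo neutrophils, and 142 in WT and 154 in *Cd300a-/-* SiglecF hi neutrophils. As deposited, its WT SiglecF lo value stood below the other 3, and the subsets did not overlap. This order depends on the scale too. After centring, the *Inpp5d* ratio of SiglecF hi to SiglecF lo neutrophils was −0.09 in WT and −0.39 in *Cd300a-/-* mice.

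Among the kinases, *Syk* encodes the tyrosine kinase that docks on phosphorylated ITAMs, and was at 164 TPM in WT and 251 in *Cd300a-/-* SiglecF lo neutrophils, and 191 in WT and 228 in *Cd300a-/-* SiglecF hi neutrophils. As deposited, both *Cd300a-/-* libraries were above both WT libraries. *Lyn*, a Src family kinase that phosphorylates both ITAMs and ITIMs, was at 277 TPM in WT and 345 in *Cd300a-/-* SiglecF lo neutrophils, and 256 in WT and 302 in *Cd300a-/-* SiglecF hi neutrophils. Here too the genotypes did not overlap as deposited. *Fgr*, a Src family kinase of myeloid cells, was at 245 TPM in WT and 303 in *Cd300a-/-* SiglecF lo neutrophils, and 262 in WT and 284 in *Cd300a-/-* SiglecF hi neutrophils, with the *Cd300a-/-* libraries again above the WT libraries as deposited. These orders also set the subsets against each other. After centring on all genes (below), *Cd300a-/-* SiglecF hi falls below WT SiglecF lo for *Syk*, *Lyn* and *Fgr*, so that the genotypes overlap. Within each subset the *Cd300a-/-* library stayed above the WT library. The share of all genes with such an order is not given here. *Btk*, a Tec family kinase needed by B cells and also used by myeloid cells, was at 49.8 TPM in WT and 43.9 in *Cd300a-/-* SiglecF lo neutrophils, and 43.4 in WT and 47.4 in *Cd300a-/-* SiglecF hi neutrophils. As deposited, neither genotypes nor subsets separated for *Btk*, whose extremes differed by 1.15 times, less than those of any of the other 8 genes.

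*Tyrobp* encodes DAP12, the ITAM adaptor of receptors such as TREM1, and was at 6600 TPM in WT and 5451 in *Cd300a-/-* SiglecF lo neutrophils, and 4928 in WT and 4742 in *Cd300a-/-* SiglecF hi neutrophils. The SiglecF lo libraries were above the SiglecF hi libraries, with WT SiglecF lo highest. *Tyrobp* exceeded *Syk* by 40.2 times in WT SiglecF lo neutrophils and by 20.8 to 25.7 times in the other 3 libraries. These genes differ greatly in length, and most of the drop with loss of CD300a in SiglecF lo neutrophils goes with it (below). *Plcg2* encodes phospholipase C gamma, the effector that releases second messengers from membrane lipid, and was at 76.8 TPM in WT and 92.8 in *Cd300a-/-* SiglecF lo neutrophils, and 94.4 in WT and 110 in *Cd300a-/-* SiglecF hi neutrophils. As for *Ptpn6* and *Inpp5d*, its lowest value was in WT SiglecF lo and its highest in *Cd300a-/-* SiglecF hi neutrophils.

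The first comparison asked how loss of CD300a went with the levels in SiglecF lo neutrophils. Ratios are log2((TPM + 1) ratio), and a gene is counted as changed past 0.5 in either direction. *Syk* alone of the 9 genes rose past 0.5 and none fell past it, where 16.4% of all 6523 genes rose and 19.9% fell. The *Syk* ratio was 0.61 (0.56 to 0.66), above that of 88.8% of all genes. This is 1 gene among many that passed, and it lies near the threshold. The ratios were 0.17 (0.12 to 0.22) for *Ptpn6*, 0.34 (0.18 to 0.49) for *Ptpn11* and 0.32 (0.25 to 0.39) for *Inpp5d*. *Lyn* had 0.32 (0.26 to 0.37), *Fgr* 0.31 (0.25 to 0.36) and *Plcg2* 0.27 (0.18 to 0.36). On the other side of 0 were *Tyrobp* at −0.28 (−0.30 to −0.25) and *Btk* at −0.18 (−0.33 to −0.03). The median of the 9 ratios was 0.31, against −0.02 for all genes. In these bulk samples, fewer cells of a type and less RNA per cell cannot be told apart.

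These ratios followed gene length across the whole transcriptome. A gene's length relative to the median gene can be recovered from its counts and TPM, and its rank correlation with the ratio of *Cd300a-/-* to WT SiglecF lo neutrophils was 0.40 across 6523 genes, which are not independent of each other. The median ratio ran from −0.50 in the shortest of 10 equal groups of genes by length (deciles) to 0.32 in the longest. The correlation was 0.19 for the genotype ratio in SiglecF hi neutrophils, 0.09 for the subset ratio in WT and −0.18 for the subset ratio in *Cd300a-/-* mice. This trend was looked for after the values had been seen, and what lies behind it was not tested. *Syk* is 1.99 times as long as the median gene, and less the median of its length decile its ratio was 0.41, so that it no longer passed 0.5. Within that decile, 85.3% of genes had a lower ratio. *Tyrobp* is 0.220 times as long as the median gene and lies in the shortest decile, and less the median of that decile its ratio turned from −0.28 to 0.22. Measured this way the 9 ratios had a median of 0.21, with 8 above 0, *Btk* at −0.12, and none past 0.5, where 14.2% of all genes were higher and 15.7% lower.

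In SiglecF hi neutrophils, loss of CD300a went with smaller ratios. None of the 9 genes passed 0.5 in either direction, where 3.31% of all genes rose and 3.46% fell. The highest ratios were 0.25 (0.21 to 0.29) for *Syk*, 0.24 (0.19 to 0.28) for *Lyn* and 0.22 (0.15 to 0.28) for *Plcg2*. *Ptpn6* had 0.14, *Btk* 0.12, *Fgr* 0.12 and *Inpp5d* 0.11, while *Tyrobp* had −0.06 and *Ptpn11* −0.10, with an interval of −0.21 to 0.0039 that includes 0. Less the median of its length decile, *Tyrobp* had 0.02. The median was 0.12, against 0.04 for all genes.

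The ratio in SiglecF hi minus that in SiglecF lo neutrophils describes how the genotype difference varied with the subset. It was −0.36 (−0.42 to −0.30) for *Syk* and −0.44 (−0.63 to −0.25) for *Ptpn11*, the lowest values of the 9. *Inpp5d* had −0.21, *Fgr* −0.19 and *Lyn* −0.08 (−0.15 to −0.01). For *Ptpn6* at −0.03 and *Plcg2* at −0.05 the counting intervals include 0. *Tyrobp* had 0.22 (0.18 to 0.26) and *Btk* 0.30 (0.11 to 0.50). With 1 library per group these differences were not tested beyond counting error. For *Tyrobp* the value depends on length too, since less the medians of its length decile it was −0.20.

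**Figure D2:**
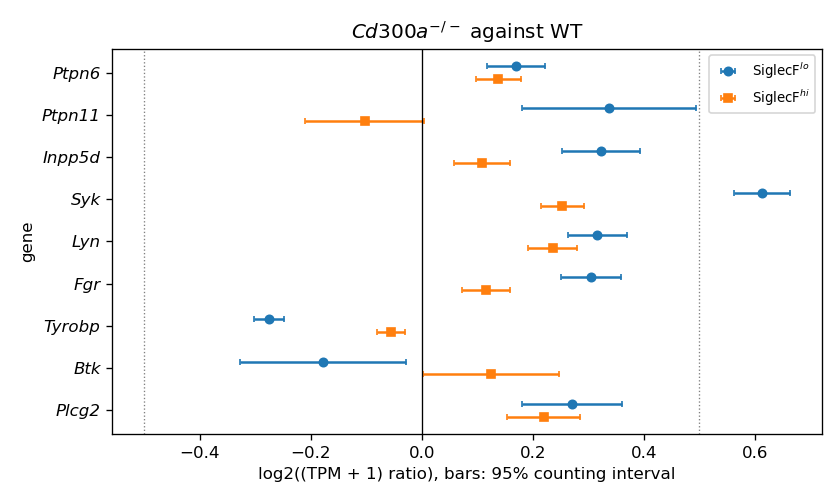
Genotype difference of each gene, *Cd300a-/-* against WT, as log2((TPM + 1) ratio), as circles in SiglecF lo and squares in SiglecF hi neutrophils, with bars for the 95% counting interval and dotted lines at 0.5 and −0.5. In SiglecF lo neutrophils *Syk* lies past the line at 0.61, and in SiglecF hi neutrophils no gene does.

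The subsets were compared next, within each genotype. Here the scale matters: the median ratio of SiglecF hi to SiglecF lo neutrophils over all genes was 0.53 in WT and 0.61 in *Cd300a-/-* mice. A few very abundant transcripts took more of the SiglecF lo libraries, with 22.8% of TPM on the 10 most abundant genes in WT and 26.7% in *Cd300a-/-* SiglecF lo neutrophils, and 12.3% in WT and 11.8% in *Cd300a-/-* SiglecF hi neutrophils. The part of these transcripts in the median ratios was not tested. Ratios are given as deposited and also centred, that is less the median of all genes.

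In WT mice, 1 of the 9 genes, *Ptpn11*, was past 0.5 upward and none downward as deposited, where 51.9% of all genes were higher and 7.47% lower. After centring none was higher and 3 were lower, where 19.3% of all genes were higher and 20.9% lower. The 3 genes were *Tyrobp* at −0.95 (−0.97 to −0.92), *Btk* at −0.72 (−0.85 to −0.58) and *Lyn* at −0.64 (−0.69 to −0.59). As deposited these were −0.42, −0.19 and −0.11. *Ptpn11* was 0.71 (0.57 to 0.85) as deposited and 0.18 (0.04 to 0.32) centred, the sole value above 0 on that scale. *Fgr* had −0.43, *Ptpn6* −0.39, *Syk* −0.30, *Plcg2* −0.23 and *Inpp5d* −0.09 after centring, whereas their deposited ratios were above 0. The median of the 9 was 0.14 as deposited and −0.39 centred, so its direction depends on the scale.

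In *Cd300a-/-* mice, none of the 9 genes passed 0.5 as deposited, where 56.6% of all genes were higher and 7.97% lower. After centring none was higher and 6 were lower, where 21.2% of all genes were higher and 23.6% lower. *Tyrobp* and *Lyn* both had −0.81, *Syk* −0.75 (−0.79 to −0.71) and *Fgr* −0.71 (−0.75 to −0.66). *Ptpn6* at −0.51 (−0.55 to −0.46) and *Btk* at −0.50 (−0.64 to −0.36) passed only narrowly. *Inpp5d* had −0.39, *Plcg2* −0.37 and *Ptpn11* −0.34. The median was 0.10 as deposited and −0.51 centred. *Tyrobp*, *Lyn* and *Btk* were thus lower past 0.5 after centring in both genotypes, and *Syk*, *Fgr* and *Ptpn6* in *Cd300a-/-* mice. The comparisons of subsets and of genotypes share libraries, so the WT SiglecF lo library enters both the *Syk* genotype ratio and the WT subset ratio.

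**Figure D3:**
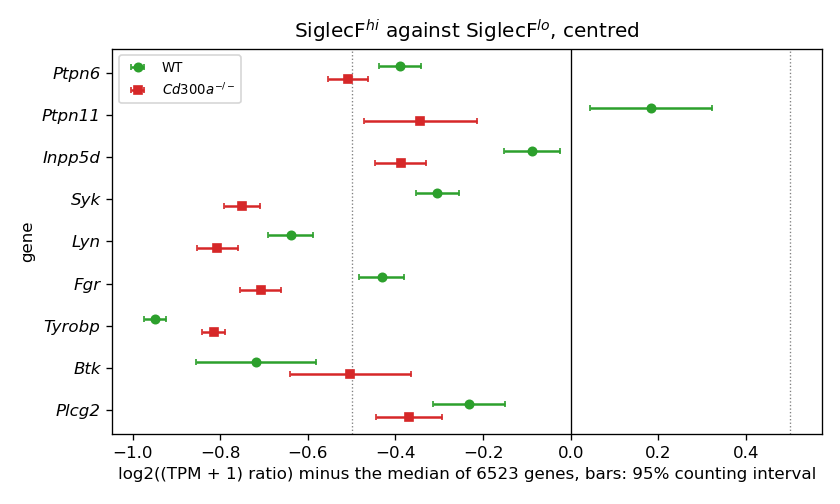
The log2((TPM + 1) ratio) of SiglecF hi to SiglecF lo neutrophils less the median of all genes, as circles in WT and squares in *Cd300a-/-* mice, with bars for the 95% counting interval and dotted lines at 0.5 and −0.5. *Ptpn11* in WT, at 0.18, is the sole point above 0 on this scale, while as deposited 6 of the 9 genes in WT and 5 in *Cd300a-/-* mice lie above 0.

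Ratios between genes within a library need no scaling between libraries, but a trend with gene length enters them where the genes differ in length. The summed TPM of the 3 phosphatases over that of the 4 kinases was 0.687 (0.668 to 0.706) in WT and 0.620 (0.605 to 0.635) in *Cd300a-/-* SiglecF lo neutrophils, and 0.787 (0.772 to 0.803) in WT and 0.748 (0.733 to 0.763) in *Cd300a-/-* SiglecF hi neutrophils. Kinase transcripts outweighed phosphatase transcripts in all 4 libraries. The ratio was higher in the SiglecF hi libraries and, within each subset, lower in the *Cd300a-/-* library, with no overlap of the counting intervals. The *Ptpn6* to *Syk* ratio was 2.34 (2.25 to 2.43) in WT and 1.72 (1.66 to 1.77) in *Cd300a-/-* SiglecF lo neutrophils, and 2.20 in WT and 2.03 in *Cd300a-/-* SiglecF hi neutrophils. With each gene less the median of its length decile, the log2 change of the summed ratio with loss of CD300a in SiglecF lo neutrophils went from −0.15 (−0.20 to −0.10) to −0.06 (−0.11 to −0.01). In the SiglecF hi subset it went from −0.07 to −0.05 (−0.09 to −0.01). The change of *Ptpn6* to *Syk* in SiglecF lo neutrophils went from −0.45 to −0.19 and that of *Tyrobp* to *Syk* from −0.89 to −0.20. For *Ptpn6* to *Ptpn11* it went from −0.18 (−0.36 to −0.01) to 0.07 (−0.10 to 0.24), so its direction depends on the scale. What lies behind the trend was not tested.

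Around the 9 genes, 94 genes of the same pathways were read in 9 lists, and 79 of them had a mean above 10 TPM. In SiglecF lo neutrophils 16 of these rose past 0.5 with loss of CD300a and 9 fell, or 20.3% and 11.4%, where 16.4% of all genes rose and 19.9% fell. In SiglecF hi neutrophils 2 rose and 3 fell, or 2.53% and 3.80%, where 3.31% and 3.46% of all genes did. The same shares of all genes stand behind the counts of each list below, and lists this small were not tested against them. The median ratios of the 79 genes were 0.13 and 0.04. Of the 25 genes past 0.5 in SiglecF lo neutrophils, 17 were past it in the same direction also when set against genes of similar length, 9 higher and 8 lower. Another 6 were higher and 1 lower on that scale alone. In all, 15 of the 79 were higher and 9 lower there, or 19.0% and 11.4%, where 14.2% of all genes were higher and 15.7% lower, so the counts changed little while the genes in them did. Of the 25 genes, 9 had a counting interval that spans the threshold. They were *Fyn*, *Pag1*, *Tec*, *Sh3bp2*, *Pik3ap1*, *Pik3r5*, *Inppl1*, *Sh2b3* and *Cd300lf*. Of the 5 genes past it in SiglecF hi neutrophils, 2 had such an interval, *Bmx* and *Hras*.

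Among relatives and regulators of the Src family, 2 of 7 genes rose in SiglecF lo neutrophils and none fell. They were *Fyn* at 0.52 (0.27 to 0.76) and *Pag1*, which anchors the inhibitory kinase CSK, at 0.52 (0.43 to 0.60). Both intervals span 0.5, and neither gene passed 0.5 against genes of similar length. *Fyn* was at 7.97 TPM in WT and 11.8 in *Cd300a-/-* SiglecF lo neutrophils, so that its mean is above 10 TPM only through the SiglecF hi libraries. *Ptprc*, the most abundant of the list, had 0.17. Of 2 Tec family kinases, *Bmx* rose by 1.10 (0.94 to 1.27) in SiglecF lo neutrophils, from 23.2 to 51.0 TPM. In SiglecF hi neutrophils it had 0.68 (0.42 to 0.94), from 5.42 to 9.31 TPM. Both of these levels are under 10 TPM and the interval spans 0.5, so that call is weak. *Tec* fell in SiglecF lo neutrophils, with a ratio of −0.57. *Btk*, of the same family, passed in neither subset.

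Of 2 other adaptors measured at the membrane, *Hcst*, encoding DAP10, fell in SiglecF lo neutrophils with −0.78, from 266 to 155 TPM. Like *Tyrobp* it is among the shortest genes, and against its length decile it had −0.28. *Fcer1g*, the ITAM-bearing Fc receptor gamma chain, was next to *Tyrobp* in abundance, with 2836 TPM in WT SiglecF lo and 2571 TPM in *Cd300a-/-* SiglecF lo neutrophils and a ratio of −0.14. *Tyrobp* exceeded *Fcer1g* by 2.33 times in WT and 2.12 in *Cd300a-/-* SiglecF lo neutrophils, and 1.69 in WT and 1.73 in *Cd300a-/-* SiglecF hi neutrophils. All 3 adaptor genes had ratios below 0 in SiglecF lo neutrophils as deposited, and of these *Hcst* alone passed 0.5. The direction depends on the scale for 2 of the 3, since against their length deciles *Fcer1g* had 0.35 and *Tyrobp* 0.22, while *Hcst* stayed below 0.

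Among 12 scaffolds and exchange factors that act below SYK, 3 rose in SiglecF lo neutrophils and none fell, where 16.4% of all genes rose and 19.9% fell. *Blnk*, a scaffold for BTK and phospholipase C gamma, rose by 1.86 (1.54 to 2.18), from 7.05 to 28.2 TPM, while the SiglecF hi libraries had 58.0 and 59.7 TPM. *Sh3bp2* rose by 0.62 and *Pik3ap1*, the most abundant of the list, by 0.53. Against their length deciles *Pik3ap1* had 0.39, while *Lat2*, an adaptor related to LAT, went from 0.38 to 0.57, which again makes 3 genes past 0.5, against 14.2% higher and 15.7% lower of all genes on that scale. In SiglecF hi neutrophils *Lat2* fell with −0.63, from 84.8 to 54.5 TPM. Of 9 lipid kinases and phosphatases, *Pik3r5*, a regulatory subunit of PI3-kinase gamma, at 0.57 (0.45 to 0.69) and *Inppl1*, the SHIP2 relative of *Inpp5d*, at 0.54 (0.26 to 0.82) were past 0.5 in SiglecF lo neutrophils, and both intervals span it. *Inppl1* was at 4.34 TPM in WT and 6.77 in *Cd300a-/-* SiglecF lo neutrophils, so that its mean is above 10 TPM only through the SiglecF hi libraries. Neither gene passed 0.5 against genes of similar length, with 0.43 and 0.34, and on that scale none of the 9 was higher past 0.5 and 1 was lower, where 14.2% and 15.7% of all genes were.

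In the arm of protein kinase C, CARD9 and RAS, 4 of 11 genes rose in SiglecF lo neutrophils and 1 fell, against the same 16.4% and 19.9% of all genes. *Nras* rose by 1.09 (0.92 to 1.26), *Malt1*, the protease partner of BCL10, by 1.02 (0.85 to 1.18) and *Prkcb* by 0.76 (0.64 to 0.88). *Hras* fell in both subsets, with −0.80 in the SiglecF lo subset and −0.54 in the SiglecF hi subset. *Prkcd*, the most abundant, had 0.36. The median of this list in SiglecF lo neutrophils was 0.39, and 0.53 against genes of similar length, where 6 of the 11 were higher past 0.5 and 1 lower, against 14.2% and 15.7% of all genes on that scale.

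Of 6 inhibitory adaptors, *Sla* rose by 0.67 and *Sh2b3* by 0.57 in SiglecF lo neutrophils, and *Dok1*, which recruits a RAS inhibitor, fell with −1.58 (−1.96 to −1.21), from 16.9 to 5.00 TPM. *Dok3*, the most abundant, had 0.34. Against their length deciles *Sh2b3* had 0.43 and *Dok3* 0.67, and 3 of the 6 were higher past 0.5 and 1 lower, against the same shares of all genes. No gene of this list passed 0.5 in SiglecF hi neutrophils. Among 15 other ITIM receptors, 2 rose and 2 fell in SiglecF lo neutrophils. *Cd33* had 0.69 and *Cd300lf*, the most abundant and another member of the CD300 family, 0.55. Against its length decile *Cd33* had 0.49, just short of the threshold, while 1 other gene passed, so that again 2 were higher and 2 lower, against 14.2% and 15.7% of all genes on that scale. *Pecam1*, shared with platelets and endothelial cells, fell with −1.82, from 57.5 to 15.6 TPM, and *Cd200r1* with −0.95. In SiglecF hi neutrophils 1 of the 15 genes passed, *Cd72* with 0.64.

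The 15 receptors listed as ITAM-coupled had ratios below 0 for 12 of the 15 in SiglecF lo neutrophils, where 3338 of all 6523 genes did. None rose past 0.5 and 3 fell, a share of 20.0% that is close to the 19.9% of all genes, and the median was −0.21. *Cd300ld* fell in both subsets, with −1.60 (−1.66 to −1.53) in the SiglecF lo and −0.93 (−0.99 to −0.88) in the SiglecF hi subset. *Fcgr1* fell with −1.22 in SiglecF lo neutrophils, and *Trem2* fell there from 157 to 78.1 TPM, with a counting interval of −1.15 to −0.84 for its ratio. *Clec4d*, the most abundant, had −0.27. These genes are short, with a median of 0.624 times the median gene, and against genes of similar length the median of the list was 0.03. The same 3 genes were past 0.5 on that scale, *Trem2* narrowly at −0.50, where 15.7% of all genes were lower. Receptor genes of the CD300, SIRP, PILR and Fc receptor families have close relatives, and how reads shared between such copies were assigned is not given in the sources used here.

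Between subsets, the balance of these 79 genes depends on the scale. As deposited, 30 were higher and 12 lower past 0.5 in SiglecF hi neutrophils of WT mice, or 38.0% and 15.2%, where 51.9% of all genes were higher and 7.47% lower. In *Cd300a-/-* mice 26 were higher and 14 lower, or 32.9% and 17.7%, where 56.6% and 7.97% of all genes were. After centring, 9 were higher and 29 lower in WT, or 11.4% and 36.7%, against 19.3% and 20.9% of all genes. In *Cd300a-/-* mice 7 were then higher and 34 lower, or 8.86% and 43.0%, against 21.2% and 23.6% of all genes. After centring, the 15 ITAM-coupled receptors made up 10 of the 29 and 9 of the 34, and the 15 ITIM receptors 8 and 7. As deposited, 5 ITAM-coupled receptors were lower and 3 higher in WT, and 3 lower and 4 higher in *Cd300a-/-* mice. Of the ITIM receptors, 4 were lower and 4 higher in WT, and 4 lower and 5 higher in *Cd300a-/-* mice.

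The nearest gene to each of the 9 was found among 87 genes, by the distance between their log2(TPM + 1) values over the 4 libraries after each gene was set to a mean of 0. *Ptpn6* lay nearest to *Ptprc*, at 0.05 against a median of 0.57 over the 87 genes. *Btk* lay nearest to *Bcl10* at 0.06, *Ptpn11* to *Lair1* at 0.09 and *Fgr* to *Ptprc* at 0.12. *Syk* lay nearest to *Prkcb* at 0.15, *Lyn* to *Dok3* at 0.16 and *Tyrobp* to the receptor gene *Clec7a* at 0.17. *Inpp5d* and *Plcg2* were each other's nearest gene, at 0.11. Over 4 libraries such nearness is a description only.

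Promoter windows are shown for the mutual neighbours *Inpp5d* and *Plcg2* and for *Syk*, which has 2 annotated starts that gene-level counts do not separate. The windows run from 250 bases before to 50 bases after each start, 5′ to 3′ on the gene's strand, and come from RefSeq on GRCm38.p6, which is not the build of the gene positions given further on. Of the 9 genes, 7 matched, with 8 windows. Capitals mark GAGGAA, the core of many PU.1 sites, on either strand.
Inpp5d, chr1:87620062-87620361, plus strand: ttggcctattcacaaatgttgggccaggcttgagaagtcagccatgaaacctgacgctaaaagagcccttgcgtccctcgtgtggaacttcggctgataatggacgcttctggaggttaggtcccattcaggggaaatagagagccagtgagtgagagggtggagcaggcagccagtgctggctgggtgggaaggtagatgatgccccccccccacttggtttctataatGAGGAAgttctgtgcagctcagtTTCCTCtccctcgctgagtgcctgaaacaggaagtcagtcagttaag
Plcg2, chr8:117498025-117498324, plus strand: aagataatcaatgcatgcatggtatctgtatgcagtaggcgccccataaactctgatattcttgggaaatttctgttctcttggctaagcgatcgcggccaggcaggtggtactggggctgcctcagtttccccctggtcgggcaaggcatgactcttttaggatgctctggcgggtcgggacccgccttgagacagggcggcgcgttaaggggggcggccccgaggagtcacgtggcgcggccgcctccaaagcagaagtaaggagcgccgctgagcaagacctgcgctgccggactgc
Syk, first start, chr13:52583187-52583486, plus strand: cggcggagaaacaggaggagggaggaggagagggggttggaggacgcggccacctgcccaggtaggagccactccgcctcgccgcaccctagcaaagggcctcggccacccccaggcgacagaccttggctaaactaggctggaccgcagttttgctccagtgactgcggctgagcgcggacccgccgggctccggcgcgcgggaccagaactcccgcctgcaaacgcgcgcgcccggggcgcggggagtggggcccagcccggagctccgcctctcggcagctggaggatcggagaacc
Syk, second start, chr13:52596632-52596931, plus strand: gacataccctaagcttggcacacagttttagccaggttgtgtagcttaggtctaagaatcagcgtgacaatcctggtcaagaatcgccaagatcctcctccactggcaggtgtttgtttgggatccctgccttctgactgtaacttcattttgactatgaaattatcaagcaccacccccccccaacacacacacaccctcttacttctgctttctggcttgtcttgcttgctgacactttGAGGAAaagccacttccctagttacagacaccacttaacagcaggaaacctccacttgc
*Inpp5d* holds 2 matches, the second start of *Syk* 1, and *Plcg2* and the first start of *Syk* none. In all, 5 of the 8 windows, from 5 genes, hold the letters, against 28.3% of 32851 windows of the same length. A match is a run of letters and not a binding site, and these data hold no measurement at these windows.

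In the positions of the deposited files, *Ptpn6* lies on chromosome 6 from 124697670 to 124715677, *Ptpn11* on chromosome 5 from 121268596 to 121329460 and *Inpp5d* on chromosome 1 from 87548034 to 87648229. *Syk* lies on chromosome 13 from 52737209 to 52802828, *Lyn* on chromosome 4 from 3678115 to 3813122, *Fgr* also on chromosome 4 from 132701406 to 132729221 and *Btk* on chromosome X from 133443085 to 133484319. *Tyrobp* lies on chromosome 7 from 30113185 to 30117010 and *Plcg2* on chromosome 8 from 118225030 to 118361881. The build named in the submitters' processing notes is GRCm39. The 9 genes are thus spread over 8 chromosomes.

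Several of the 9 genes are also expressed by macrophages, so markers of other cells were read beside them. The summed level of 8 neutrophil markers, led by *S100a9*, was 154960 TPM in WT and 204322 in *Cd300a-/-* SiglecF lo neutrophils, and 27503 in WT and 32526 in *Cd300a-/-* SiglecF hi neutrophils. The summed level of 12 macrophage and monocyte markers was 3602 TPM in WT and 3322 in *Cd300a-/-* SiglecF lo neutrophils, and 8999 in WT and 7818 in *Cd300a-/-* SiglecF hi neutrophils, with *C1qb* highest and none of the 12 at 0 in any library. As deposited, 11 of the 12 had ratios of SiglecF hi to SiglecF lo neutrophils above 0 in WT and 12 in *Cd300a-/-* mice. After centring 9 did in WT and 11 in *Cd300a-/-* mice. All 8 neutrophil markers had ratios below 0 on both scales in both genotypes. The macrophage and monocyte markers had median ratios of 1.30 in WT and 1.07 in *Cd300a-/-* mice as deposited, and 0.77 and 0.46 after centring. The part of such cells in the subset ratios was not tested. Within each subset the sum was lower in the *Cd300a-/-* than in the WT library.

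B cells, which depend on *Btk*, *Syk* and *Plcg2*, left little trace. The 6 B cell markers summed to 5.20, 6.73, 8.69 and 14.4 TPM in the order WT SiglecF lo, *Cd300a-/-* SiglecF lo, WT SiglecF hi and *Cd300a-/-* SiglecF hi, with *Cd79b* highest and *Ighm* at 0 in every library. The 6 T and NK cell markers, led by *Cd3d*, summed to at most 7.92 TPM, and the 6 eosinophil markers, led by *Ccr3*, to at most 6.95 TPM, with *Epx* at 0 in every library although eosinophils carry SiglecF. Among 5 mast cell markers *Hdc*, which neutrophils also express, stood at 1512, 2287, 860 and 1103 TPM, and *Cpa3* was at 0 throughout.

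The 6 platelet markers summed to 353, 244, 878 and 641 TPM in the same order, nearly all of it *Pf4*, and *Gp1bb* was at 0 in every library. The 5 fibroblast markers, led by *Dcn*, summed to 718, 665, 1546 and 1109 TPM. The 5 endothelial markers, led by *Cdh5*, summed to 85.4, 34.8, 51.9 and 70.2 TPM, and were lowest in *Cd300a-/-* SiglecF lo neutrophils, as *Pecam1* was. The part of endothelial RNA in the *Pecam1* ratio was not tested. The 5 cardiomyocyte markers, led by *Myl2*, summed to 41.0, 25.0, 41.5 and 62.6 TPM.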

How the data were processed

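Counts, RPKM, TPM and a scaled CPM per gene were deposited for 4 libraries of sorted cardiac neutrophils, 1 per group. RNA was extracted with ISOGEN, selected for poly(A), prepared with the NEBNext Ultra II kit and sequenced in pairs on a NextSeq, and the authors used CLC Genomics Workbench 20.0. The deposited counts are whole numbers without normalization, and whether they count reads or pairs is not given in the sources used here. The deposited TPM values are normalized by the authors for gene length and depth and sum to 1000000 in each library. The build in the submitters' processing notes is GRCm39. RPKM and CPM were not used.

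Ratios are log2((TPM + 1) ratio), for genes with a mean TPM over 10, the level the study's methods use. Because that scale adds 1 TPM, it understates changes of low genes. Counting intervals (95%) used the Poisson error of the counts in each library. The depth per library ran from 9631901 to 19278243 counts. No test compared conditions. Alternatives were a pseudocount of 0.1, a mean TPM over 1, no filter, TPM over 10 in both libraries compared, a threshold of 1, CPM scaled with TMM factors (edgeR 4.0.16) or with DESeq2 1.42.0 size factors, and centring on all genes. Setting ratios against genes of the same length decile was added after the data were seen.

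The genes named are the 9 chosen genes, *Cd300a*, the sorting markers and, for each pathway list, the most abundant gene and those past 0.5 in a genotype comparison, at most the 3 largest in each direction. The nearest gene to each of the 9 and, for each list of another cell type, the most abundant and a defining gene were also named. Of the genes that this rule takes, 1 is left out. The members and lists were chosen with earlier results of these data known. The calculations were tested on simulated counts with known fold changes and Poisson error alone. That setting had no spread between libraries and no trend with gene length. Python 3.11.15, numpy 2.4.6, pandas 2.3.3, matplotlib 3.10.9 and R 4.3.3 were used.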

Additional observations from a re-analysis of the deposited data

Results flagged for a closer look

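The genotype ratio of *Btk* pointed opposite ways in the subsets, and both counting intervals left out 0. It was −0.18 (−0.33 to −0.03) in the SiglecF lo and 0.12 (0.0016 to 0.25) in the SiglecF hi subset, a difference of 0.30 (0.11 to 0.50). Neither ratio passed 0.5, the second interval only just leaves out 0, and with centring on all genes it runs from −0.04 to 0.21. Against genes of similar length the ratios were −0.12 and 0.10, and with intervals of the same width both then include 0. The difference was 0.26 with TMM-scaled counts, 0.25 with DESeq2 size factors and 0.22 against genes of similar length. With 1 library per group it was not tested beyond counting error.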

How the results depend on the processing

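No paired analysis was possible because each group has 1 library. Whether both subsets of a genotype were sorted from the same hearts is not given in the sources used here. In the genotype comparisons the median of the 9 ratios stayed above 0 under every alternative run, and no ratio past 0.5 changed sign. In SiglecF lo neutrophils the median of 0.31 became 0.36 with DESeq2 size factors and 0.21 against genes of the same length decile, and the count past 0.5 was 0 with that last alternative and with a threshold of 1. The threshold of 1 also left 0 genes in the WT subset comparison.

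The subset comparisons depend on the scaling. In WT the median of 0.14 became −0.40 with TMM factors, −0.47 with DESeq2 size factors, −0.39 with centring on all genes and −0.39 against the length decile, and the count past 0.5 went from 1 higher to 3, 4, 3 and 3 lower. In *Cd300a-/-* mice the median of 0.10 became −0.48, −0.56, −0.51 and −0.52, and the count went from 0 to 4, 6, 6 and 6 lower.

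The difference between subsets of the genotype ratio moved beyond counting error for *Tyrobp*, from 0.22 to 0.18 with TMM factors, 0.16 with DESeq2 size factors and −0.20 against the length decile. Against the length decile it also moved to −0.11 for *Ptpn6*, −0.11 for *Inpp5d* and −0.26 for *Syk*. The median over the 12 single phosphatase to kinase ratios was 0.533 in WT and 0.515 in *Cd300a-/-* SiglecF lo neutrophils, and 0.707 in WT and 0.621 in *Cd300a-/-* SiglecF hi neutrophils, with the same order of libraries as the summed ratio. A filter on TPM leaves the ratio of a single gene as it is. Under the other 5 alternatives, the genotype values of single genes stayed within their counting interval in 33 of 45 cases for SiglecF lo neutrophils and 38 of 45 for SiglecF hi neutrophils. In each subset comparison 36 of 45 moved, which is every value under each of the 4 rescalings, and the 9 that stayed are those with the other pseudocount. Of all genes, 36.3% were past the threshold for genotype in SiglecF lo neutrophils, with a range of 9.37% (threshold of 1) to 45.1% (mean TPM over 1), and 6.78% in SiglecF hi neutrophils, with a range of 0.705% (threshold of 1) to 16.3% (no filter). The causes of these shifts were not tested.

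With 1 pool of 8 hearts per group, spread between mice, sorts or library preparations was not measured. The counting intervals do not include it. Transcript levels do not give the phosphorylation or activity by which these enzymes act.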
